A study of Homo sapiens with 6 samples.

Results

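The 68 genes described here are nuclear genes of the mitochondrial respiratory chain and the ATP synthase, chosen by name from a table of 35544 loci. A gene was taken if its row carried a single name that begins like those of the subunits of complexes I to V (NDUFA, NDUFB, NDUFC, NDUFS and NDUFV with a number, SDHA to SDHD, UQCR, CYC1, COX4 to COX8, and ATP5), and 40 pseudogene names and the assembly factors named NDUFAF were left out. By name, 31 belonged to complex I, 2 to complex II, 8 to complex III, 14 to complex IV and 13 to complex V. Some of them were not subunits in the strict sense: 3 antisense RNAs (NDUFA6-AS1, NDUFB2-AS1 and NDUFV2-AS1), the accessory gene ATP5S (coupling factor B), and rarely expressed paralogs. The names of a further 22 genes stood on 20 rows that join several genes and were not members.

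Both groups were SiHa cells, an established line from a squamous carcinoma of the cervix. One group was transfected with a vector plasmid and the other with one that carries hsa_circ_0005358, a circular RNA without a polyA tail whose own level was not analysed here. The labels spell its name in more than 1 way (also hsa_circ_000538 and has_circ005358), and these were taken as the same. Cells were collected after 72 h, and polyA RNA was sequenced from 3 libraries a group. The study looked for mRNAs downstream of the circular RNA. Whether libraries of a group came from separate cultures is not stated, and the p-values therefore reflect only how these libraries vary, which may be technical. Transfection leaves a mixed population, and in bulk RNA fewer cells of a kind and less RNA per cell cannot be told apart.

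The respiratory chain sits in the inner mitochondrial membrane. Complexes I and II pass electrons from NADH and succinate to ubiquinone, complex III passes them to cytochrome c, and complex IV reduces oxygen. Complexes I, III and IV pump protons, and complex V, the ATP synthase, uses the gradient to make ATP. Complexes I, III, IV and V combine subunits made from mitochondrial DNA with nuclear-encoded ones, and several nuclear subunits of complex IV have a second gene used in muscle, testis or lung. Many cancer lines keep an active chain beside high glycolysis.

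Values are FPKM, fragment counts scaled to transcript length and library size. The FPKM sums were 138864, 139419 and 141833 in the vector libraries and 141895, 145278 and 143536 in those with circ_0005358, all higher. The main fit was not rescaled for this difference, and medians after rescaling are given with the alternatives. The depth implied by the value of 1 fragment was 71.2% of the deepest library in circ_0005358 replicate 2 and 93.2% to 100% in the others. Vector replicate 3 had 27803 loci above 0 FPKM, and the other libraries had 23227 to 23834. Of 9 cervical epithelial markers, 7 reached the test, and 6 of these fell. Their summed level was 1269 to 1338 FPKM with vector and 618 to 696 FPKM with circ_0005358, while KRT5 and TP63, which mark basal squamous cells, were at most 0.0414 and 0.254 FPKM. Of the 4 leukocyte markers with a row, only CD14 passed the filter (13.2, 10.4 and 10.5 FPKM in the vector libraries against 1.33, 14.5 and 16.2 FPKM in those with circ_0005358), and PTPRC and CD3E were at most 0.161 FPKM. LUM alone of 4 fibroblast markers with a row passed it and fell (6.35, 6.85 and 9.21 FPKM in the vector libraries against 1.69, 1.11 and 1.49 FPKM in those with circ_0005358). COL1A1, below the filter, was lower without overlap (0.399, 0.401 and 0.794 FPKM in the vector libraries against 0.215, 0.300 and 0.239 FPKM in those with circ_0005358). COL3A1 and DCN, below the filter, were higher without overlap (COL3A1 0.0862, 0.0357 and 0.206 FPKM in the vector libraries against 0.784, 0.824 and 0.857 FPKM in those with circ_0005358; DCN 0.164, 0.156 and 0.147 FPKM in the vector libraries against 0.195, 0.219 and 0.201 FPKM in those with circ_0005358), and the summed fibroblast level was 7.0 to 10.4 FPKM with vector and 2.45 to 2.88 FPKM with circ_0005358. The 4 endothelial markers summed to at most 0.692 FPKM. The part of these marker differences in the results below was not tested.

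Most subunits were expressed, and their levels covered a wide range. The test was limited to loci that reached 1 FPKM in 3 or more of the 6 libraries, as did 57 of the 68 genes: 27 of complex I, 2 of complex II, 7 of complex III, 9 of complex IV and 12 of complex V. FPKM is per transcript length, so levels can be set beside each other, with the reserve that the way FPKM was combined over the transcripts of a gene is not given in the sources used here. ATP5B, the catalytic beta subunit of the ATP synthase, was highest with a mean of 296 FPKM over 6 libraries. CYC1 (cytochrome c1) and UQCRC1 (a core protein of complex III) followed at 71.1 and 67.0 FPKM, each between 61.2 and 82.4 FPKM in every library. COX4I1 averaged 43.98 FPKM and NDUFA8, the highest of complex I, 38.9 FPKM. The medians of the tested members were 11.7 FPKM for complex I, 20.8 for complex II, 36.9 for complex III, 17.2 for complex IV and 17.8 for complex V. At the low end, the accessory ATP5S averaged 1.09 FPKM. Among low subunits, NDUFA3 averaged 1.23 FPKM, NDUFS7 2.18 FPKM and UQCRB 3.34 FPKM, and their libraries lay between 0.934 and 4.23 FPKM.

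**Figure D1:**
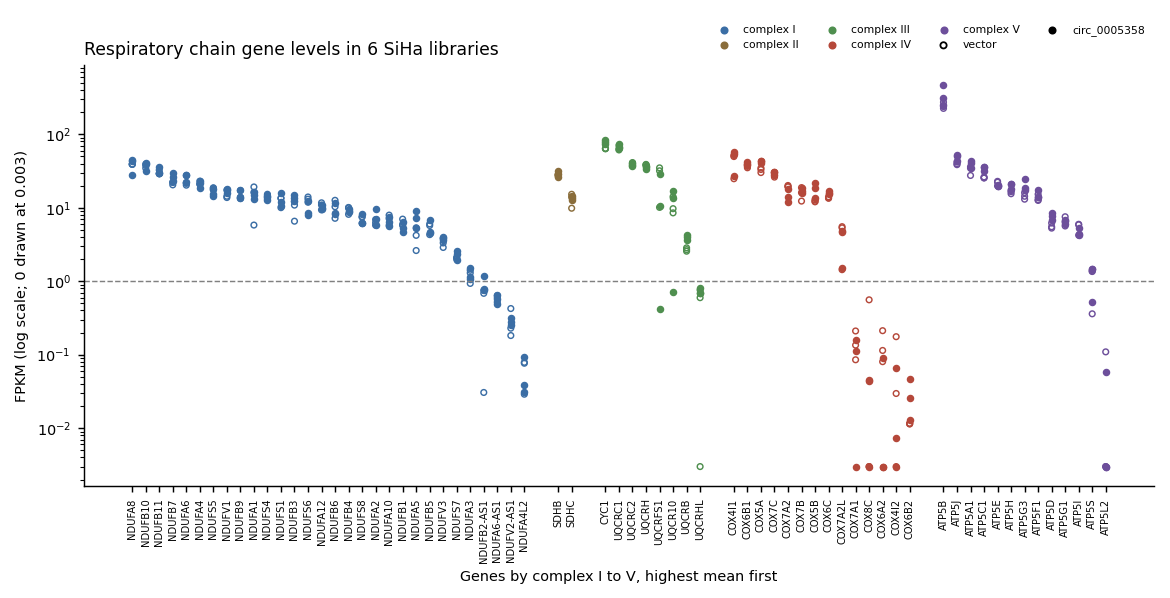
FPKM of 67 of the 68 genes in each of the 6 libraries, on a log axis and grouped by complex with the highest mean first. Open circles are vector libraries, filled circles are circ_0005358 libraries, and the dashed line is the FPKM of 1 used in the filter. ATP5B lies highest with a mean of 296 FPKM, and 11 genes stay below the filter.

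The 11 genes that did not pass the filter were the 3 antisense RNAs and 8 paralogs. Of the muscle forms of complex IV, COX6A2 reached at most 0.212 FPKM and COX7A1 at most 0.210 FPKM, while COX7A2, the widely expressed partner of COX7A1, stood between 12.1 and 20.1 FPKM. The testis forms COX6B2 and COX8C reached 0.0467 and 0.558 FPKM, against 35.03 to 42.01 FPKM for COX6B1. COX4I2, a form known from lung, reached 0.176 FPKM and its partner COX4I1 stood at 24.8 FPKM or more. COX7A1, COX8C and COX4I2 were highest in vector replicate 3, and COX8C reached at most 0.0446 FPKM in the other libraries. NDUFA4L2, which hypoxia is known to induce, was at most 0.0933 FPKM beside 18.6 to 23.2 FPKM for NDUFA4, a subunit of complex IV despite its name. In none of these pairs did the ranges of the partners meet, in either group. UQCRHL, an intronless copy of UQCRH, was listed at 0 in vector replicate 1 and at 0.597 to 0.800 FPKM elsewhere, and fragments from near-identical copies may have been split between their rows. ATP5L2, a paralog of subunit g, was at most 0.109 FPKM. For the antisense RNAs, none above 1.17 FPKM, strand use in counting is not given, so reads of the 2 strands cannot be told apart.

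With circ_0005358, 4 of the 57 tested genes rose and 0 fell: UQCRB and CYC1 of complex III, COX5A of complex IV and ATP5C1 of complex V. Calls rest on limma over all 10295 tested loci, on log2(FPKM + 1), at an adjusted p under 0.05. The share of members that rose was 7.02%, and 6.41% of all tested loci were called higher, so the members' count was near the background. In either direction 11.4% of tested loci were called and 4.96% were called lower. At an unadjusted p under 0.05 stood 14 of 57 members (24.6%) and 27.3% of all tested loci. The median log2 fold change of the members was 0.07, beside 0.02 over all tested loci, and 37 of 57 members (64.9%) were above 0, beside 53.0% of all loci. The 4 increases lay between 1.23-fold and 1.47-fold in mean FPKM, and all 4 calls were lost under 9 alternatives each, most of which leave out a library.

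**Figure D2:**
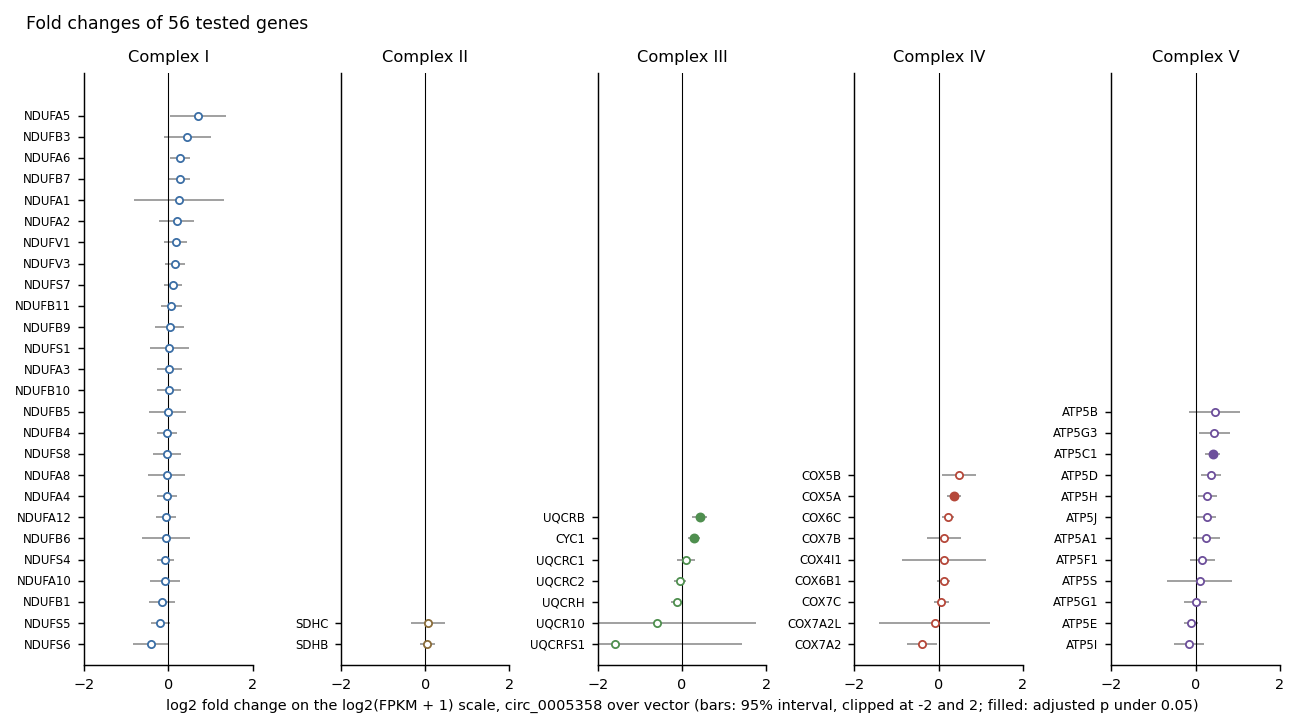
Log2 fold change of circ_0005358 over vector on the log2(FPKM + 1) scale for 56 of the 57 tested genes, 1 panel for each complex. Points are estimates, bars are 95% intervals clipped at -2 and 2, and filled points passed the test. The 4 filled points lie between 0.29 and 0.43, and the widest bars belong to UQCRFS1 and UQCR10.

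CYC1 carries the heme that hands electrons to cytochrome c. CYC1 had 63.7, 64.4 and 63.6 FPKM in the vector libraries against 73.6, 82.4 and 79.1 FPKM in those with circ_0005358. Every library with the circular RNA plasmid was above every vector library, and the vector libraries were within 1.01-fold of each other. Its mean rose from 63.9 ± 0.405 to 78.4 ± 4.47 FPKM (SD, n = 3 each), a ratio of 1.23 (log2 fold change 0.29, standard error 0.0569, limma adjusted p = 0.0337). A permutation test (exact, two-sided) gave p = 0.1 here and for each later gene whose groups did not overlap, which is as low as 3 against 3 libraries can go. The gene occupies bases 144095027 to 144097525 of chromosome 8 (plus strand) in GRCh38, and the 50 tested loci nearest to it had a median log2 fold change of 0.19. With a single library left out, its limma adjusted p was 0.108, 0.106 and 0.0987 without vector replicate 1, 2 or 3, and 0.071 and 0.108 without circ_0005358 replicate 2 or 3, which ended the call each time. The call held only without circ_0005358 replicate 1 (0.0308). Over every alternative tried, CYC1 had an adjusted p of 0.0254 to 0.258.

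UQCRB is a small subunit near the quinone site of complex III, and the least abundant of the 4. UQCRB had 2.69, 2.85 and 2.56 FPKM in the vector libraries against 4.04, 3.67 and 4.23 FPKM in those with circ_0005358. Each library with circ_0005358 exceeded each vector library. Its mean rose from 2.701 ± 0.142 to 3.98 ± 0.286 FPKM (SD, n = 3 each), a ratio of 1.47 (log2 fold change 0.43, standard error 0.0713, limma adjusted p = 0.0206). UQCRB occupies bases 96225920 to 96235634 of chromosome 8 (minus strand), and its 50 nearest tested loci had a median of 0.10. With a single library left out, its limma adjusted p was 0.0776, 0.062 and 0.0712 without vector replicate 1, 2 or 3, and 0.0668 and 0.0745 without circ_0005358 replicate 1 or 3, which ended the call each time. The call held only without circ_0005358 replicate 2 (0.0316). Over every alternative tried, UQCRB had an adjusted p of 0.0153 to 0.205.

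The other subunits of complex III did not pass the test, and they pointed both ways. UQCRC1 and UQCRC2, the core proteins that face the matrix, had log2 fold changes of 0.10 and -0.05 (limma adjusted p = 0.508 and 0.624). UQCRH, the acidic hinge protein that helps cytochrome c to dock, stood at 38.02, 38.9 and 38.3 FPKM in the vector libraries against 33.5, 37.004 and 35.5 FPKM in those with circ_0005358. All its circ_0005358 libraries lay below all vector libraries, with a ratio of 0.920 (log2 fold change -0.12, standard error 0.0544, limma adjusted p = 0.234). In groups that did not overlap, CYC1 and UQCRB were higher and UQCRH, which did not pass, lower within the same complex. Of all tested loci, 19.8% were higher and 15.9% lower without overlap. UQCRFS1, the Rieske iron-sulfur protein, and UQCR10, a small transmembrane subunit, varied too much between libraries for a comparison and are described with the other such genes.

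COX5A is a matrix-facing subunit of cytochrome c oxidase. COX5A had 33.2, 30.1 and 34.8 FPKM in the vector libraries against 43.04, 42.8 and 41.3 FPKM in those with circ_0005358. No vector library reached the lowest circ_0005358 library. Its mean rose from 32.7 ± 2.35 to 42.4 ± 0.959 FPKM (SD, n = 3 each), a ratio of 1.296 (log2 fold change 0.37, standard error 0.0669, limma adjusted p = 0.0274). COX5A occupies bases 74919791 to 74938168 of chromosome 15 (minus strand), and the median of its 50 nearest tested loci was 0.22. With a single library left out, its limma adjusted p was 0.0872 and 0.0654 without vector replicate 1 or 2, and 0.0801, 0.0768 and 0.0771 without circ_0005358 replicate 1, 2 or 3, which ended the call each time. The call held only without vector replicate 3 (0.0444). Over every alternative tried, COX5A had an adjusted p of 0.0253 to 0.201.

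ATP5C1 (ATP5F1C in current naming) encodes the gamma subunit, the shaft that turns inside the ATP synthase head. ATP5C1 had 26.3, 25.4 and 25.6 FPKM in the vector libraries against 36.3, 31.5 and 36.2 FPKM in those with circ_0005358. The vector libraries lay within 1.03-fold of each other, and all circ_0005358 libraries were above them. Its mean rose from 25.8 ± 0.435 to 34.7 ± 2.72 FPKM (SD, n = 3 each), a ratio of 1.35 (log2 fold change 0.41, standard error 0.0704, limma adjusted p = 0.0223). ATP5C1 occupies bases 7788129 to 7807815 of chromosome 10 (plus strand), where the 50 nearest tested loci had a median of 0.20. With a single library left out, its limma adjusted p was 0.0745, 0.0841 and 0.0757 without vector replicate 1, 2 or 3, and 0.0662 and 0.0789 without circ_0005358 replicate 1 or 3, which ended the call each time. The call held only without circ_0005358 replicate 2 (0.0135). Over every alternative tried, ATP5C1 had an adjusted p of 0.0129 to 0.201.

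The promoters of ATP5C1 and COX5A are shown because nuclear respiratory genes are known for binding sites of NRF1 and of ETS factors near their start, and because both genes rose. No window was available for CYC1 and UQCRB, which rose too, so none is printed for them. The windows are RefSeq's, of build GRCh38.p14, from 250 bases before to 50 bases after the start of the gene, written 5′ to 3′ on the gene's strand, and capitals mark motif matches. ATP5C1 is chr10:7787927-7788226 on the plus strand, and COX5A is chr15:74938024-74938323 on the minus strand.
ATP5C1: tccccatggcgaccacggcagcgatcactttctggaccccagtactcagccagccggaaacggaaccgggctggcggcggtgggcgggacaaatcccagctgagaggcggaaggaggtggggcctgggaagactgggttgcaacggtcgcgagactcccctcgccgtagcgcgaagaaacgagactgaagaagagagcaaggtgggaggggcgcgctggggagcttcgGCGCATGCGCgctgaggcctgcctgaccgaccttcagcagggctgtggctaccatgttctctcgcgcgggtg
COX5A: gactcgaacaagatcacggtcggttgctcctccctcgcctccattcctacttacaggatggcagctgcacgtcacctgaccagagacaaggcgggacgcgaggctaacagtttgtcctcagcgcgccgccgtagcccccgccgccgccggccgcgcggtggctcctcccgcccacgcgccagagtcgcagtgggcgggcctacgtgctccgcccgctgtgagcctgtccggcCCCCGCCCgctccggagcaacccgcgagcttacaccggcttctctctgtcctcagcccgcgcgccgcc
Searched on both strands were the letters GCGCA, any base, then GCGC for NRF1, CCGGAAG for ETS factors, GGGCGGGG for SP1 and AAGATGG for YY1. The ATP5C1 window held the NRF1 letters, as GCGCATGCGC starting 22 bases before the RefSeq start, and no match to the other motifs. The COX5A window held the SP1 letters on the opposite strand, as CCCCGCCC starting 18 bases before the RefSeq start, and no match to the others. For both genes the RefSeq start lies inside the GENCODE bounds given above, and so do both matches. Of 35116 windows in the table, 5.78% held the NRF1 letters, 10.3% the ETS, 22.8% the SP1 and 5.84% the YY1 letters. A match is a description of letters, not a shown binding site. Only 44 of the 57 tested members (77.2%) had a window, below the 80% set for such a check, so a share over the members is void and not given.

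The 9 tested members of complex IV had a median log2 fold change of 0.13, and COX5A alone passed the test. COX5B, a zinc-binding subunit, stood at 12.8, 12.04 and 12.3 FPKM in the vector libraries against 13.7, 21.5 and 18.8 FPKM in those with circ_0005358. Its circ_0005358 libraries were all higher but spread over 1.57-fold (log2 fold change 0.48, standard error 0.162, limma adjusted p = 0.127). COX6C was also higher without overlap (14.1, 13.5 and 13.6 FPKM in the vector libraries against 15.4, 15.8 and 17.1 FPKM in those with circ_0005358), with log2 fold change 0.22, standard error 0.0598, limma adjusted p = 0.0805. COX7A2 was lower without overlap, at 19.4, 19.4 and 20.1 FPKM in the vector libraries against 18.1, 14.2 and 12.1 FPKM in those with circ_0005358 (log2 fold change -0.40, standard error 0.143, limma adjusted p = 0.144). Without circ_0005358 replicate 1 both passed (limma adjusted p = 0.022 and 0.0356). Under the other alternatives COX5B had 0.0948 to 0.412 and COX7A2 0.113 to 0.423. COX6B1, COX7B and COX7C, small subunits of the same enzyme, had log2 fold changes of 0.12, 0.13 and 0.06 (adjusted p = 0.281, 0.657 and 0.638).

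Complex V had the highest median of the complexes, 0.26 over 12 tested members, of which 10 were above 0, 5 did not overlap and 1 was called. Among all tested loci 35.8% did not overlap and 11.4% were called. This median stayed between 0.22 and 0.28 under every alternative tried. In the head of the enzyme, ATP5B stood at 239, 225 and 273 FPKM in the vector libraries against 312, 476 and 253 FPKM in those with circ_0005358. Its circ_0005358 libraries differed 1.88-fold, replicate 2, the shallowest library, was highest, and replicate 3 lay within the vector range (log2 fold change 0.45, standard error 0.240, limma adjusted p = 0.298). Without circ_0005358 replicate 2 the log2 fold change of ATP5B was 0.20 in place of 0.45. ATP5A1, the alpha subunit, had log2 fold change 0.26, standard error 0.128, limma adjusted p = 0.264, with groups that overlapped. In the central stalk beside ATP5C1, ATP5D (delta) stood at 5.51, 6.201 and 5.29 FPKM in the vector libraries against 6.88, 8.44 and 7.64 FPKM in those with circ_0005358 without overlap and just missed the threshold (log2 fold change 0.37, standard error 0.0946, limma adjusted p = 0.0645). ATP5E (epsilon), in the same stalk, was at -0.11 on the log2 scale (adjusted p = 0.375).

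The peripheral stalk holds the head still, and none of its 3 members given here passed the test. ATP5H (subunit d) stood at 15.5, 17.1 and 16.6 FPKM in the vector libraries against 18.03, 21.4 and 21.3 FPKM in those with circ_0005358. ATP5J (coupling factor 6) stood at 39.7, 42.04 and 38.6 FPKM in the vector libraries against 50.96, 42.95 and 52.1 FPKM in those with circ_0005358. Both were higher in all circ_0005358 libraries, though neither passed (log2 fold change 0.28 and 0.27, limma adjusted p = 0.0999 and 0.124). ATP5J passed without circ_0005358 replicate 2 (limma adjusted p = 0.0398). ATP5F1 (subunit b) overlapped, with a log2 fold change of 0.16 (adjusted p = 0.46). Of the genes for the c ring, which turns as protons pass, ATP5G3 stood at 16.05, 13.1 and 14.3 FPKM in the vector libraries against 17.6, 18.3 and 24.6 FPKM in those with circ_0005358 without overlap (log2 fold change 0.44, standard error 0.147, limma adjusted p = 0.125). ATP5G1, which encodes the same mature protein, stood at 7.54, 5.65 and 6.36 FPKM in the vector libraries against 6.76, 6.03 and 6.697 FPKM in those with circ_0005358 and had a log2 fold change of 0.00 (95% interval -0.27 to 0.27). The difference between these c-ring genes was not tested. ATP5I (subunit e) had a log2 fold change of -0.15 and ATP5S of 0.10 (adjusted p = 0.554 and 0.87).

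Complex I, the largest group, had no called gene among 27 tested, 15 above 0 and 12 below, and a median log2 fold change of 0.02. That median turned to -0.01 after rescaling to a common FPKM sum, under quantile normalization and with FPKM of at least 5, so it has no settled sign. The median over all tested loci was -0.008, 0.002 and 0.033 in these settings, beside 0.022 in the main fit. The catalytic core varied little: NDUFS1, NDUFS7, NDUFS8 and NDUFV1, which carry the flavin and iron-sulfur clusters, had log2 fold changes from -0.03 to 0.17, with a lowest adjusted p of 0.376.

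Accessory subunits of complex I spread further, from -0.42 to 0.71. NDUFA6, a LYR-motif protein of the matrix arm, stood at 21.7, 21.5 and 20.3 FPKM in the vector libraries against 27.8, 22.5 and 27.5 FPKM in those with circ_0005358, and NDUFB7, of the membrane arm, at 20.5, 22.04 and 22.3 FPKM in the vector libraries against 23.03, 29.8 and 26.03 FPKM in those with circ_0005358. Both were higher in all circ_0005358 libraries and did not pass (log2 fold change 0.27, standard error 0.0946, limma adjusted p = 0.134 for NDUFA6, and log2 fold change 0.26, adjusted p = 0.173 for NDUFB7). NDUFA5, of the matrix arm, stood at 5.34, 2.62 and 4.21 FPKM in the vector libraries against 5.295, 7.29 and 9.001 FPKM in those with circ_0005358. It had the highest estimate of all members, with overlapping groups (log2 fold change 0.71, standard error 0.265, limma adjusted p = 0.16). NDUFS6, a zinc-binding subunit, stood at 13.1, 11.9 and 14.02 FPKM in the vector libraries against 7.92, 12.5 and 8.498 FPKM in those with circ_0005358, with circ_0005358 replicate 2 among the vector values (log2 fold change -0.42, standard error 0.173, limma adjusted p = 0.194). Without that replicate NDUFA6 and NDUFS6 passed in opposite directions (limma adjusted p = 0.0331 and 0.0318, log2 fold change 0.37 and -0.60). NDUFB3, of the membrane arm, did not overlap but had 6.57 FPKM in vector replicate 2 against 10.9 FPKM or more elsewhere (log2 fold change 0.45, standard error 0.223, limma adjusted p = 0.263). NDUFA4 stood at 23.03, 20.99 and 21.003 FPKM in the vector libraries against 21.5, 18.6 and 23.2 FPKM in those with circ_0005358 (log2 fold change -0.04). Counted with complex IV, it left the medians of complexes I and IV at 0.03 and 0.12.

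Complex II, which is also an enzyme of the tricarboxylic acid cycle, was represented by SDHB and SDHC, since SDHA and SDHD stood on joined rows. SDHB, the iron-sulfur subunit, stood at 28.4, 26.97 and 27.99 FPKM in the vector libraries against 31.5, 28.8 and 26.6 FPKM in those with circ_0005358. SDHC, a membrane anchor, stood at 15.3, 14.004 and 9.86 FPKM in the vector libraries against 13.5, 14.4 and 12.9 FPKM in those with circ_0005358. Groups overlapped for both, with log2 fold changes of 0.05 (95% interval -0.13 to 0.24) and 0.08 (95% interval -0.33 to 0.48).

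Across complexes, groups did not overlap for 16 of 57 tested members (28.1%), 14 of them higher (24.6%) and 2 lower (3.51%). Among all tested loci, 35.8% did not overlap, 19.8% higher and 15.9% lower. By complex these members numbered 4 in complex I, 0 in complex II, 3 in complex III, 4 in complex IV and 5 in complex V. For 39 of 57 members (68.4%) the 95% interval lay within 1.5-fold in both directions on the FPKM + 1 scale. Larger differences on that scale were outside the interval for them. For the other 18 the interval reached a 1.5-fold difference on that scale in at least 1 direction. In plain FPKM the same bound allows a larger fold change for low genes. On chromosome 8, which holds 4 tested members, UQCRB, COX6C and CYC1 were higher without overlap, and NDUFB9 had a log2 fold change of 0.03. NDUFB3, COX5B and ATP5G3, all on chromosome 2, were also higher without overlap, while other members there overlapped. The share without overlap over all tested loci of a chromosome was not computed, and a difference between chromosomes was not tested.

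**Figure D3:**
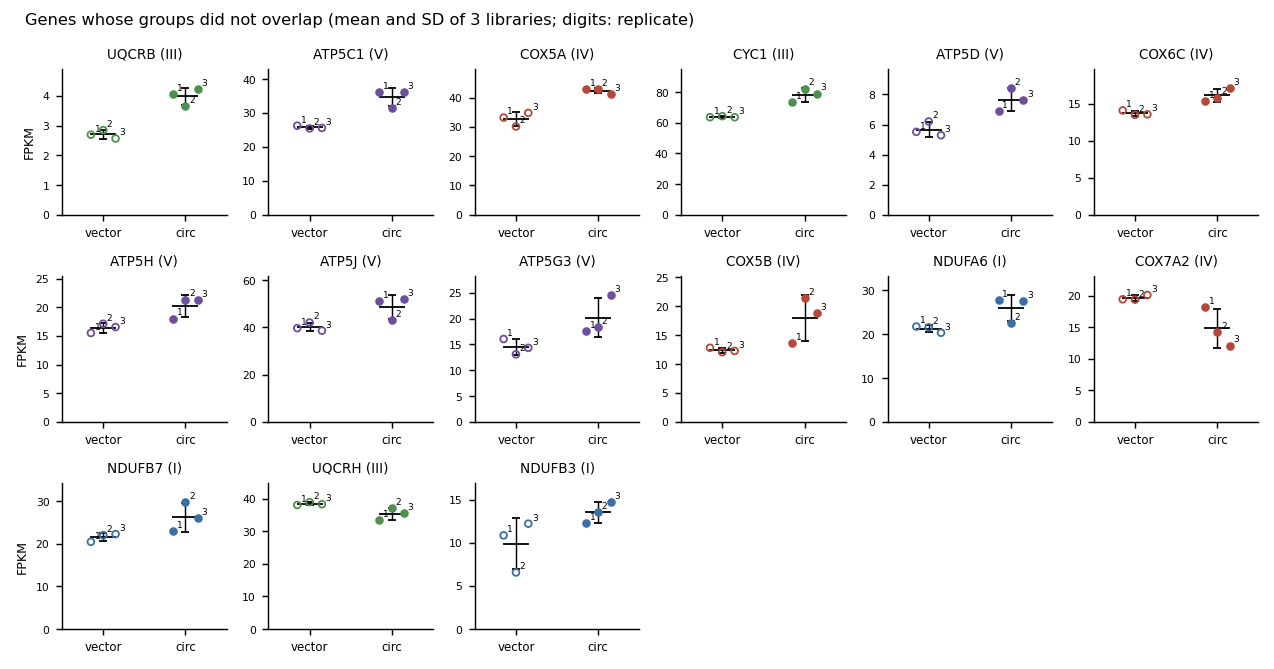
FPKM by library for 15 of the 16 genes whose groups did not overlap, in order of p, with the complex in brackets. Points are libraries with the replicate number beside them, and bars are the mean and SD of 3 libraries. In 13 panels the circ_0005358 libraries lie higher, and for COX7A2 and UQCRH they lie lower.

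ATP5B made up a large part of the summed FPKM of complex V. Over the members of complex V the sum was 429, 401 and 457 FPKM with vector and 535, 684 and 478 FPKM with circ_0005358. Without ATP5B it was 191, 175 and 184 FPKM against 222, 208 and 224 FPKM, so the groups stayed apart with a narrower spread. For complex I the sum was 383, 355 and 390 FPKM against 380, 402 and 391 FPKM, and the groups overlapped. They overlapped also for complexes II, III and IV, whose sums lay between 37.8 and 45.0, between 229 and 262 and between 191 and 246 FPKM.

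For 7 of the 57 tested members (12.3%) the highest library of a group was at least 2 times its lowest, which held for 19.2% of all tested loci. UQCRFS1 was the most extreme, at 10.1, 34.9 and 31.9 FPKM in the vector libraries against 29.03, 10.4 and 0.417 FPKM in those with circ_0005358. It was low in vector replicate 1 and circ_0005358 replicates 2 and 3 alike, and its estimate of -1.59 had a standard error of 1.2004 (adjusted p = 0.461). Without circ_0005358 replicate 3 that estimate was -0.35. The row of its copy UQCRFS1P1 held 4.67 to 5.58 FPKM in 5 libraries and was listed at 0 in circ_0005358 replicate 3, where UQCRFS1 was also lowest. UQCR10 stood at 14.2, 8.52 and 9.72 FPKM in the vector libraries against 16.97, 13.6 and 0.710 FPKM in those with circ_0005358, low in circ_0005358 replicate 3 alone.

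COX4I1 and COX7A2L shared another pattern. COX4I1, the largest nuclear subunit of complex IV, stood at 24.8, 49.8 and 51.5 FPKM in the vector libraries against 53.1, 57.4 and 27.3 FPKM in those with circ_0005358. COX7A2L, which links complexes III and IV into supercomplexes, stood at 1.44, 5.33 and 5.53 FPKM in the vector libraries against 4.78, 4.75 and 1.496 FPKM in those with circ_0005358. Both were low in vector replicate 1 and circ_0005358 replicate 3 and stood close together in the other 4 libraries. Without these 2 libraries their log2 fold changes were 0.12 and -0.16 (limma adjusted p = 0.489 and 0.418), a setting chosen after the values were seen. NDUFA1 was low in vector replicate 2 (19.2, 5.82 and 16.2 FPKM in the vector libraries against 13.01, 15.1 and 16.6 FPKM in those with circ_0005358), NDUFA5 also had its lowest value there, and ATP5S was low in replicate 1 of both groups (0.360, 1.36 and 1.38 FPKM in the vector libraries against 0.523, 1.48 and 1.47 FPKM in those with circ_0005358). Values under 50% of the median of the other libraries occurred for 4 members in vector replicate 1, 2 in vector replicate 2, 3 in circ_0005358 replicate 3, 1 each in circ_0005358 replicates 1 and 2, and 0 in vector replicate 3. Over all tested loci each library held 4.25% to 5.34% such values. The cause of such values was not tested.

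**Figure D4:**
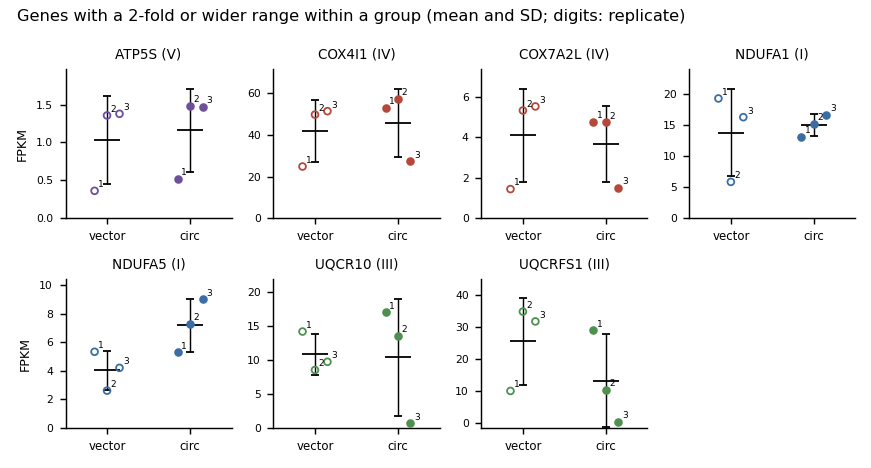
FPKM by library for the 7 genes with at least a 2-fold range within a group. Points are libraries with the replicate number beside them, and bars are the mean and SD. COX4I1 and COX7A2L are low in vector replicate 1 and circ_0005358 replicate 3, and UQCRFS1 is at 0.417 FPKM in circ_0005358 replicate 3.

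Other genes of mitochondrial energy metabolism, from lists of names, mostly did not pass either. Of 36 tested assembly factors of complexes I to V, 0 rose and 0 fell, with a median log2 fold change of 0.07. Among 17 genes of mobile carriers and quinone supply, 0 rose and 1 fell: COQ10A, a coenzyme Q binding protein, at 4.18, 3.87 and 4.23 FPKM in the vector libraries against 2.89, 3.25 and 2.77 FPKM in those with circ_0005358 (log2 fold change -0.36, adjusted p = 0.0361). Among 15 regulators of mitochondrial biogenesis, 1 rose and 0 fell, with a median of 0.17. That gene was YY1, a zinc finger factor that also acts on many genes outside mitochondria, at 3.16, 5.43 and 5.72 FPKM in the vector libraries against 13.4, 13.6 and 11.6 FPKM in those with circ_0005358. No YY1 value overlapped between groups (log2 fold change 1.29, adjusted p = 0.0168, range over alternatives 0.0114 to 0.113, lost in 6 of 17). TFAM packages mitochondrial DNA and helps to start its transcription. TFAM stood at 5.36, 4.84 and 4.32 FPKM in the vector libraries against 19.6, 17.5 and 6.81 FPKM in those with circ_0005358. Its circ_0005358 libraries were all higher and replicate 3 was far below the other 2 (log2 fold change 1.31, adjusted p = 0.0961).

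Of 65 mitochondrial ribosomal proteins, MRPS9, MRPL15 and MRPL16 rose (log2 fold changes 0.34, 0.38 and 0.30) and 0 fell, with a median of 0.00. In the import machinery, 1 of 18 rose, TIMM29 (log2 fold change 0.73, adjusted p = 0.0408), and 0 fell. TIMM29 stood at 0.693, 0.964 and 1.38 FPKM in the vector libraries against 2.49, 2.57 and 1.91 FPKM in those with circ_0005358. Vector replicates 1 and 2 were under 1 FPKM, so the circ_0005358 libraries carried it past the filter. Of 16 genes of glycolysis and lactate handling, 1 rose and 2 fell, with a median of -0.03. PFKL, the liver form of phosphofructokinase, stood at 9.99, 10.5 and 11.4 FPKM in the vector libraries against 17.4, 20.3 and 18.5 FPKM in those with circ_0005358 and rose (log2 fold change 0.76, adjusted p = 0.00501). GAPDH and ENO2, glycolytic enzymes downstream of it, fell (log2 fold changes -0.31 and -0.89, adjusted p = 0.0203 and 0.0487). These counts are to be read beside the 6.41% of all tested loci called higher and 4.96% called lower. The PFKL call was lost in 1 of 17 alternatives, the MRPS9 call in 5, and each of the other calls in these lists in 6 to 13.

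**Figure D5:**
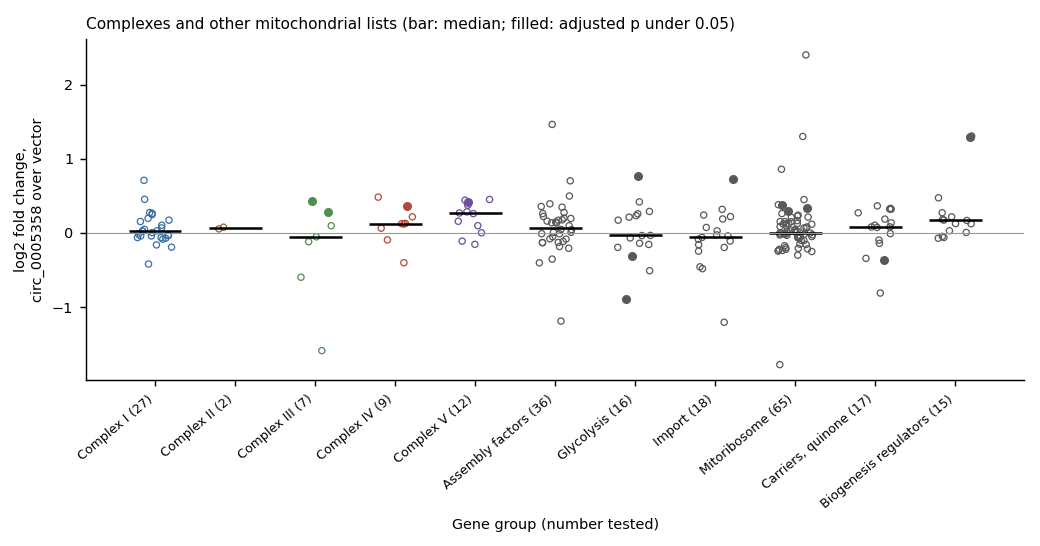
Log2 fold change of circ_0005358 over vector for every tested gene of the 5 complexes and of 6 other lists, with the number tested in brackets. Bars are medians and filled points passed the test. The median is highest for complex V at 0.26, and medians of the other groups lie between -0.05 and 0.17.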

How the data were processed

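PolyA RNA of 3 vector and 3 circ_0005358 SiHa libraries was measured. The authors deposited 1 table of FPKM values per locus. Trimmomatic, HISAT2 and hg19 are named per the submitters' processing notes. Neither their versions nor the program and annotation behind FPKM is given in the sources used here. Positions are from GENCODE 29 (GRCh38), matched by the table's transcript identifiers, and so differ in build from hg19. Relative depth was estimated from the commonest value that a single fragment gives, on loci with 1 transcript. No counting interval was drawn from it.

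Loci that reached 1 FPKM in 3 or more of 6 libraries were compared on log2(FPKM + 1) by limma 3.58.1 (R 4.3.3), fitted with a trend of variance on level. P-values are two-sided and were adjusted over all tested loci by the Benjamini-Hochberg method, with calls under 0.05. Such fold changes understate the change of low genes. Intervals are limma's, unadjusted. Exact permutation tests used scipy 1.17.1. The procedure was tested on simulated data. There, 46% of loci changed 1.5-fold on the FPKM + 1 scale were called, 64% at 2-fold and 88% at 3-fold. Far fewer loci were changed there than the 1171 called in the data, so the adjusted threshold was stricter than in the data. These shares may therefore be lower than those in the data, and they do not measure them. Changes of the size reported here can still be missed. Alternatives changed the pseudocount, filter, scaling, variance model, library weights or libraries, or added a replicate block.

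Members and lists were chosen with earlier results of these data known, so no count over a list has a p-value. Named are all members past the threshold, the 4 with the smallest p and the most abundant one in each complex, members with an isoform gene, and up to 3 called genes of each other list. Genes named beyond this rule were picked with their values in view. Of the list members, only rows with a single name were used. Some genes, and 1 list, are not reported here and are not drawn by name in figures.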

Additional observations from a re-analysis of the deposited data

How the results depend on the processing

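Leaving out 1 library moved the count of changed loci from 1171 to between 485 and 761, that of members called higher from 4 to between 0 and 4, of members called lower from 0 to at most 1, and of members without overlap from 16 to between 18 and 27. Over all tested loci, 4295 to 4635 of 10050 to 10113 then did not overlap, beside 3685 of 10295 with all libraries. The members' median log2 fold change then ran from 0.0475 to 0.111 (0.0676 with all libraries), that of complex III from -0.0728 to 0.118 (from -0.0524), and that of complex IV from 0.0852 to 0.175 (from 0.125). With no filter on low values 591 loci changed, 0 members were called, and the medians were 0.0385 for all members, 0.0222 for complex III and 0.044 for complex IV. Rescaling to a common sum gave 0.0328 for all members and 0.0905 for complex IV, and quantile normalization gave -0.096 for complex III. The median over all tested loci moved from 0.0222 to -0.0076 with rescaling and to 0.0022 with quantile normalization. Without vector replicate 3 and circ_0005358 replicate 2, 198 loci changed and 0 members were called. Groups did not overlap for 28 of 56 members and for 5432 of all 9735 tested loci. The medians in this setting were -0.0138 for complex III and 0.0521 for complex IV. Without vector replicate 1 and circ_0005358 replicate 3, a setting chosen after the data were seen, 79 loci changed and 0 members were called. Groups did not overlap for 34 of 57 members and for 5152 of all 9799 tested loci. The medians in this setting were 0.123 for all members and 0.0956 for complex III. Fewer libraries leave fewer degrees of freedom, and leaving out a library can end the overlap of a locus but cannot create one. The cause of the other shifts was not tested. With a replicate block 259 loci changed and 0 members were called. At an unadjusted p under 0.05 by limma stood 10 of 57 members and 2382 of all 10295 tested loci. Libraries that share a number are not said to be paired: their deviations from the group means correlated at 0.0644, 0.0481 and 0.0781, and each library correlated best with its own number, a hint from the data only. Of 457 values of the 27 named members under alternatives, 416 kept their direction or stayed short of the threshold as before, 36 lost the call and 5 gained it. What depth limits was not tested.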

Other observations

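Subunit names on joined rows gave no call by limma. The 20 rows that carry 22 further names, among them SDHA, SDHD, NDUFS3, NDUFV2, ATP5O and UQCRQ, were all tested, with 0 higher and 0 lower, log2 fold changes from -0.22 to 0.72 (median 0.08) and a lowest adjusted p of 0.138. The highest estimate was on the row of OTUB1 and COX8A, whose value cannot be assigned to either gene: 7.07, 14.9 and 6.22 FPKM in the vector libraries against 8.69, 20.2 and 19.1 FPKM in those with circ_0005358. Of 3 subunits or associated proteins that the name rule misses, all tested, 0 rose and 0 fell (median log2 fold change -0.01). One of them was NDUFAB1, the mitochondrial acyl carrier protein and a complex I subunit. NDUFAB1 stood at 45.99, 43.9 and 43.9 FPKM in the vector libraries against 41.7, 43.3 and 23.2 FPKM in those with circ_0005358. It was lower without overlap, with circ_0005358 replicate 3 far below the other libraries (log2 fold change -0.35, limma adjusted p = 0.426).

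Subunits made from mitochondrial DNA could not be set beside the nuclear ones. The row of MT-ND5 and MT-CYB held 78.5 and 353 FPKM in vector replicates 1 and 2 and 44.6 and 197 FPKM in circ_0005358 replicates 1 and 2, and was near 0 in replicate 3 of both groups. The row that joins MT-ND1, MT-ND4, MT-ATP6 and others held 21.6, 1.86 and 5.59 FPKM with vector and 4.65, 4.50 and 3.37 FPKM with circ_0005358. Neither row passed the test (limma adjusted p = 0.925 and 0.685).

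Some other mitochondrial genes, chosen here after their values were seen, also differed widely between libraries of a group. MRPL57 stood at 9.72, 9.49 and 10.7 FPKM in the vector libraries against 0.602, 0.509 and 12.6 FPKM in those with circ_0005358, COA4 at 9.85, 11.04 and 11.03 FPKM in the vector libraries against 2.08, 2.16 and 12.7 FPKM in those with circ_0005358, and MRPL50 at 8.38, 7.64 and 0.301 FPKM in the vector libraries against 10.98, 10.4 and 10.6 FPKM in those with circ_0005358. None passed the test. MRPL57 and COA4 were low in circ_0005358 replicates 1 and 2, and MRPL50 in vector replicate 3.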
